A study of Mus musculus with 32 samples.

Results

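Secreted antimicrobial proteins of the gut are represented here by 7 genes, followed in libraries of monocytes and of sorted gut macrophages derived from them. They are the C-type lectins Reg3a, Reg3b, Reg3g and Reg4, the lysozymes Lyz1 and Lyz2, and the ribonuclease Ang4, chosen by symbol from the 24148 symbols that both count tables share. Libraries were sequenced from the 3′ end of poly(A) RNA. The recipients of the first transfer were [CD11c-DTR > C57BL/6] BM chimeras, whose haematopoietic cells carry the diphtheria toxin receptor (DTR) under the CD11c promoter and which received diphtheria toxin before and after the transfer, so that their own CD11c-expressing macrophages were ablated. All were on the C57BL/6 background. The graft (3 libraries, labelled as blood although the study describes BM) was Ly6C+ CD117- CD11b+ CD115+ GFPint monocytes of Cx3cr1 GFP/+ CD45.1 donors. Graft-derived CD45.1+ GFP+ macrophages were sorted from the colon on day 4 (3 libraries), day 8 (4) and day 12 (4), and from the ileum on days 4, 8 and 12 (4 each). In the second transfer, grafted cells were sorted on day 14 from the colon of toxin-treated recipients whose haematopoietic cells carry CX3CR1-DTR (6 libraries). Epithelial cells had been stripped from the tissue with EDTA and DTT before digestion. The age of the animals is given only for irradiation of the chimeras, and whether each library came from 1 animal is not stated, so p-values measure only the spread between these libraries, which may be technical.

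Intestinal epithelium keeps bacteria at a distance with secreted proteins. REG3 lectins bind the bacterial wall, and REG3B and REG3G are made by enterocytes and Paneth cells of the small intestine in response to bacteria. Paneth cells at the base of the small intestinal crypts also secrete lysozyme from Lyz1, alpha-defensins and the bactericidal ribonuclease ANG4. Lyz2 encodes the lysozyme of monocytes, macrophages and neutrophils. Reg4 encodes a secreted lectin of enteroendocrine and deep crypt secretory cells, the latter being the colon's counterpart of Paneth cells.

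Sequences are shown for both pairs of near copies, because 3′ reads of a pair can only be told apart where the copies differ. In the deposited tables (mm9) Reg3b lies at chr6:78320879-78323460 (plus strand), Reg3a at chr6:78330703-78333833 (plus strand) and Reg3g at chr6:78416262-78418868 (minus strand), all within 1 cluster. Lyz2 (chr10:116714597-116719328) and Lyz1 (chr10:116724851-116729924) are neighbours on the minus strand, Reg4 lies at chr3:98026079-98040671 (plus strand) and Ang4 at chr14:52383567-52393265 (minus strand). The coding sequences of Lyz1 and Lyz2 (447 bases each) are 95.08% identical, and their last 90 coding bases, in exons 3 and 4, differ at 2 positions, which are in capitals.
Lyz1: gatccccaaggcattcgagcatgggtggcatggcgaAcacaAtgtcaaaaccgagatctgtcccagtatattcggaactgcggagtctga
Lyz2: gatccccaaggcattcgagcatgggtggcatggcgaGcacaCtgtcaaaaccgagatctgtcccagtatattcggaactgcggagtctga
Of all windows of 50 bases in the last 400 bases of the Lyz1 transcript, 18.8% also occur in Lyz2, and reads that fall there would not map uniquely. The split of reads between Lyz1 and Lyz2 is therefore uncertain, although the larger part of both 3′ ends is distinct. Reg3b and Reg3g are less alike, with coding sequences 75.95% identical, no shared window of 50 bases, and 25 differing positions (capitals) in the last 90 coding bases, which lie in exons 5 and 6.
Reg3b: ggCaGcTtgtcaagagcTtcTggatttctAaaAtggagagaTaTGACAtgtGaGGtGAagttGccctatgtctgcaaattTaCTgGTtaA
Reg3g: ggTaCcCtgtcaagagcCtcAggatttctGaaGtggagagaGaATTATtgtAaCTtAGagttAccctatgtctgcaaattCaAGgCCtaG
Exons came from the GENCODE models on mm9. Ang4 shares 8.55% of the windows in its last 400 bases with Ang5.

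The promoters of Reg3b and Reg3g are shown because this pair had almost the same pattern over 22 libraries (Pearson r = 0.97). The 120 bases before each start are given (RefSeq promoter table of GRCm38.p6, placed in mm9 by exact match), with the longest run that the pair shares, 20 bases ending at the start site, in capitals.
Reg3b, chr6:78320759-78320878, plus strand: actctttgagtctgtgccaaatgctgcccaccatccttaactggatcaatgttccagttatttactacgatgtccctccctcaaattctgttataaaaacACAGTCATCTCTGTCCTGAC
Reg3g, chr6:78418869-78418988, minus strand: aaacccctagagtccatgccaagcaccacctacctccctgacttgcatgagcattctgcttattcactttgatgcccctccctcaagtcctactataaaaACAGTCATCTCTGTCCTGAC
Over the 300 bases of the table the Reg3b and Reg3g promoters are 68.09% identical, and those of Lyz1 and Lyz2 82.45%. Short motifs of 4 factors were searched on both strands of all 32851 promoters. The STAT motif TTCNNNGAA was found in 8.3% of them and in Reg3b and Ang4 among the 7 genes. The CDX motif TTTATNG was found in 10.9% of promoters and in Reg3g. The C/EBP motif TTNCNNAA was found in 40.7% and in Reg3a, Lyz1 and Lyz2, and the PU.1 motif GAGGAA in 28.3% and in Ang4. No match overlapped another, and such matches describe letters only.

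Between 591817 and 5228664 reads were counted on genes per library of the first transfer and 1223772 to 4218027 per library of the second. Values are normalized reads, which are counts per 10000000 mapped reads, and 3 counts, taken as the floor, equal 3.51 to 27.65 normalized reads. One colon day 8 library (replicate 1) is in none of the study's source data columns and entered no comparison. Ranges and overlaps given below leave this library out unless it is named. Labels were checked with marker lists, as shares of the reads on genes. The 12 epithelial genes of the list (Epcam, Cdh1 and keratins among them) held 0.0005% to 0.0009% in the graft. They held 1.95% to 2.89% in colonic libraries, 0.350% to 2.49% in ileal libraries and 2.24% to 2.73% in the CX3CR1-DTR libraries. The 12 macrophage genes held 0.162% to 0.218%, 0.0990% to 0.674%, 0.263% to 2.69% and 0.171% to 0.389% in the same order, and the 7 pan-leukocyte genes 1.21% to 1.39%, 0.0277% to 0.132%, 0.0883% to 0.688% and 0.0266% to 0.0811%. Epithelial RNA was thus counted in every library of sorted gut macrophages, and its part in the results below was not tested. Ileum day 4 replicates 2 and 3, both of experiment 1, went against their segment. Their ratio of small intestinal to colonic enterocyte genes was 0.0964 and 0.0619, within the range of the colonic libraries of this transfer (0.0319 to 0.185), whereas the other 10 ileal libraries lay between 1.87 and 11.3. Results of day 4 and relations over the ileal libraries are given with and without these 2 libraries unless stated.

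The members were distributed differently over graft, colon and ileum, with Ang4 alone showing no difference that passed between the segments. Compared with the graft, day 4 libraries of both segments held far more reads of Reg3b, Reg3g, Reg4 and Ang4 and far fewer of Lyz2. Lyz1 was 30.3-fold lower in colon day 4 and 4.21-fold lower in ileum day 4. The ileal difference of Lyz1 from the graft did not pass without ileum day 4 replicates 2 and 3. On days 8 and 12 ileal libraries held more Reg3b, Reg3g, Reg3a, Lyz1 and Lyz2 than colonic ones, and colonic libraries held more Reg4. Which cells these reads came from was not tested. In the fit of all groups (edgeR, adjusted p under 0.05 over 11842 genes), 6 of 7 members passed between the graft and colon day 4, with 4 higher and 2 lower in colon, where 60.4% of all genes tested passed (35.9% higher and 24.5% lower). All 7 passed between the graft and ileum day 4, with 5 higher and 2 lower in ileum, where 56.7% of all genes did (36.2% higher and 20.5% lower). Both comparisons share the graft libraries. The members that rose were admitted to the tests through engrafted libraries alone, as the graft held at most 1 read of each. Their tests against the graft are thus a description and no independent support. Between colon and ileum, 3 of 7 passed on day 4, all lower in colon, against 3.18% of all genes (0.524% higher and 2.66% lower in colon). On day 8, 6 of 7 passed, 1 higher and 5 lower in colon, against 35.0% of all genes (16.7% and 18.3%), and on day 12 again 6 of 7, 1 higher and 5 lower, against 32.5% (15.3% and 17.2%). No member passed between day 12 and day 4 in colon, where 0 genes passed (245 at an unadjusted p under 0.05, and 1 gene with DESeq2), or in ileum, where 2.30% passed (0.279% higher and 2.02% lower on day 12). The interaction of segment and day was passed by 0 genes (739 at an unadjusted p under 0.05, 16 with DESeq2). Without ileum day 4 replicates 2 and 3, 6 of 7 passed between colon and ileum on day 4, where 3067 of 11815 genes did. In this setting Lyz1 no longer passed between ileum day 4 and the graft, whereas the other members did. Their edgeR adjusted p against the graft ran from 1.28e-07 (Reg3g) to 0.00177 (Lyz2). The share of all genes that passed against the graft in this setting is not given here. Bounds and ratios of ileum day 4 against the graft given below are of all 4 libraries. Since dates in the labels tie libraries to a transfer experiment, the experiment was also fitted as a block. With the block 4 of 7 members passed between colon and ileum on day 4, with Lyz2 as the fourth, among 1265 genes in place of 377, and 0 genes in place of 272 passed between ileum day 12 and day 4. For a sorted population, fewer cells of a type and less RNA per cell cannot be told apart in any of these values.

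**Figure D1:**
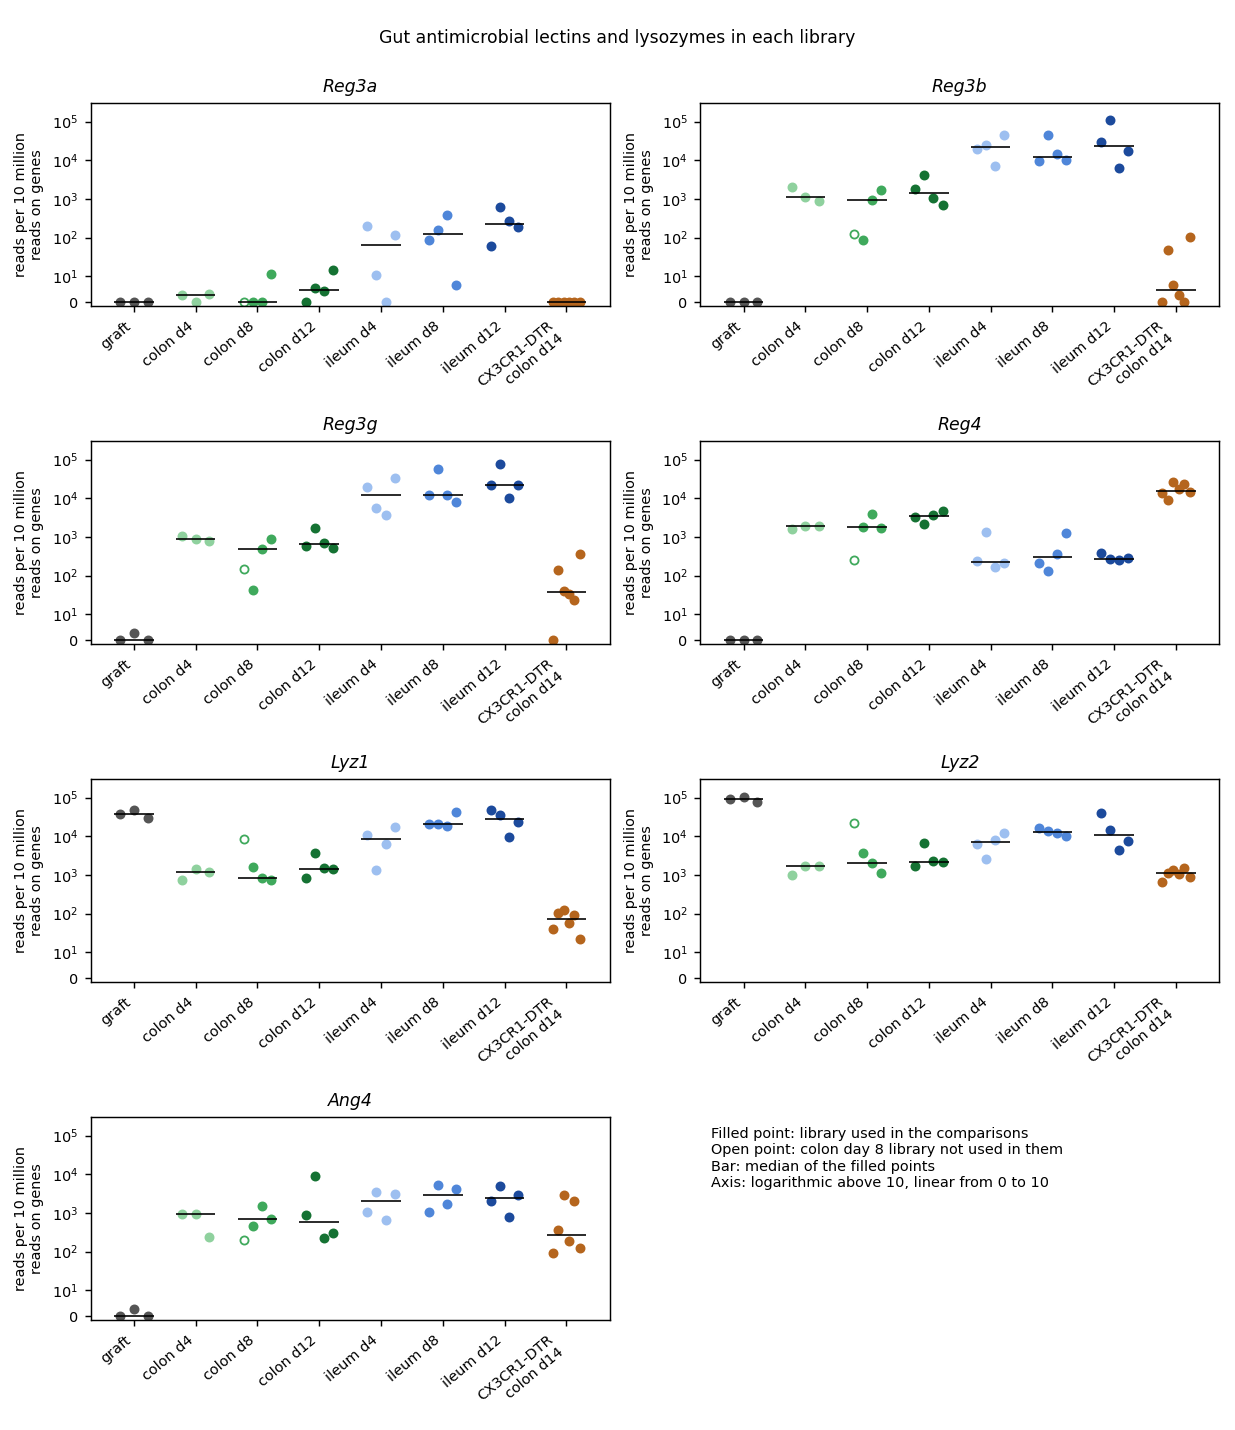
Level of each gene in every library, in reads per 10000000 reads on genes (logarithmic above 10, linear from 0 to 10), by group; points are libraries, bars the median of the libraries compared, and the open point is the colon day 8 library that entered no comparison. Reg3b and Reg3g sit highest in the ileum, Reg4 in the colon and above all in the CX3CR1-DTR libraries, and Lyz2 in the graft.

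Reg3b, a lectin gene of enterocytes and Paneth cells, had no read in any of the 3 graft libraries. It stood at 1292, 634 and 557 normalized reads in the colon on day 4, at 57.4, 608 and 1069 on day 8 and at 1212, 2407, 594 and 388 on day 12. Colonic libraries thus spread over more than a decade on day 8, with replicate 2 lowest. In the ileum the levels were 9126, 14432, 3889 and 24221 on day 4, 4666, 29011, 7627 and 5282 on day 8, and 18264, 65487, 3377 and 8640 on day 12. Every ileal library lay above every colonic library of the same day, also on day 4, where replicates 2 and 3 carry colonic enterocyte markers. Against 3 reads in each graft library, Reg3b was at least 115.5-fold higher in colon and at least 1802-fold higher in ileum on day 4 (edgeR adjusted p = 2.33e-05 and 7.32e-07). Colon minus ileum was -4.02 ± 1.02 on the log2 scale (SE) on day 4 (n = 3 and 4, edgeR adjusted p = 0.043), -4.49 ± 1.04 on day 8 (n = 3 and 4, 0.00282) and -4.49 ± 0.92 on day 12 (n = 4 and 4, 0.00131, 22.5-fold). Single libraries moved the last 2 values by more than 1.5-fold, to -3.67 on day 8 without ileum replicate 2 and -5.35 without colon replicate 4, and to -3.38 on day 12 without ileum replicate 2 and -5.16 without colon replicate 2, all of which passed. The day 4 call was kept in 8 of 17 alternatives, and in 9 of 17 for each of Reg3g and Lyz1, the other members that passed on that day. Without ileum day 4 replicates 2 and 3 the day 4 difference was -4.37 for Reg3b (0.00551), -4.67 for Reg3g (0.00101), -3.43 for Lyz1 (0.000635) and -1.28 for Ang4 (0.425).

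Reg3g, which binds Gram-positive bacteria, followed Reg3b. The graft held a single Reg3g read, in replicate 2. In the colon Reg3g stood at 647, 509.9 and 498 normalized reads on day 4, at 27.0, 329 and 536 on day 8 and at 401, 999.6, 398 and 300.2 on day 12. In the ileum it stood at 8954, 3226, 1963 and 18558 on day 4, at 5969, 37257, 6402 and 4211 on day 8, and at 13670.0, 46635, 5379 and 10807 on day 12. No ileal library overlapped the colonic ones of its day. Summed over libraries, Reg3g was 814-fold more frequent in colon day 4 than in the graft (95% counting interval 145.7 to 32200) and 11320-fold in ileum day 4 (2032 to 447300), and both differences passed the test (adjusted p = 1.81e-05 and 2.85e-07). Colon minus ileum was -3.93 ± 0.94 on day 4 (0.0373), -5.62 ± 1.02 on day 8 (0.000442) and -5.28 ± 0.88 on day 12 (0.000395, 38.9-fold), all on the log2 scale with SE and edgeR adjusted p. Without ileum replicate 2 the day 8 and day 12 values were -4.52 and -4.46, and without colon replicate 4 that of day 8 was -6.42, all still passing, whereas the day 4 value without ileum replicate 4 was -3.23 and did not pass (0.104). Ileum day 8 replicate 2 and ileum day 12 replicate 2, of experiments 3 and 1, carried the highest levels of both lectins, which together made up 1.88% of all reads on genes in the latter.

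The ratio of Reg3b to Reg3g reads is given as a description, with no test. There were 1.118 to 2.00 Reg3b reads per Reg3g read in colon day 4, 1.85 to 2.13 in colon day 8 and 1.29 to 3.02 in colon day 12. In ileum day 8 the ratio was 0.779 to 1.25 and in ileum day 12 it was 0.628 to 1.40. Ileum day 8 did not overlap the colon day 8 libraries compared. The unused colon day 8 library, at 0.846, lay within the ileal range of its day. Ileum day 4 ranged from 1.02 to 4.47, and the highest value belonged to replicate 2, which carries colonic enterocyte markers.

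Reg3a, the third lectin of the cluster, was scarce. It had no read in the graft, at most 1 read in a colon day 4 library and at most 6 reads (7.02 normalized reads) in a colon day 8 library. On day 12 the colon had 0, 3.114, 2.44 and 8.25 normalized reads, whereas the ileum had 36.2, 379.6, 143 and 96.1. These groups did not overlap, and colon minus ileum was -5.43 ± 1.07 on the log2 scale (SE, edgeR adjusted p = 0.00102), or -4.70 without ileum replicate 2 and -6.33 without colon replicate 4. On day 8 ileal levels were 43.4, 105, 204 and 3.40, and the difference of -4.73 ± 1.22 passed (0.00555), although replicate 4 held 1 read and overlapped the colon. It was -3.91 without ileum replicate 3 (0.0196). All 6 colonic reads of that day were in replicate 4, and without it the test passed as well (0.0162), with no fold given against a group at 0. On day 4 they were 92.4, 6.40, 0 and 64.2. Reg3a was found in the ileal day 4 libraries with ileal markers and at or under 3 reads in replicates 2 and 3, and against the colon it did not pass (adjusted p = 0.0707). It passed without both of these libraries (0.00499), without replicate 2 alone (0.0166), in experiment 2 alone (0.0152) and with DESeq2 on all libraries (0.0189). Against 3 reads in each graft library, ileum day 4 was at least 5.69-fold higher (0.00246). Reg3a entered the tests only through ileal libraries, as no graft or colonic library reached the 50 normalized reads required in 3 libraries. Its tests between the ileum and the colon or graft are thus a description and no independent support.

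Reg4, the lectin of crypt secretory and endocrine cells, had the opposite distribution. It had no read in the graft. Colonic levels were 997, 1135 and 1183 normalized reads on day 4, 1179, 2636 and 1029 on day 8, and 2267, 1311, 2087 and 2586 on day 12. Ileal levels were 112, 786, 92.2 and 114 on day 4, 108, 84.3, 194 and 649 on day 8 and 226, 158, 138 and 140.5 on day 12. On each day the lowest colonic library compared exceeded the highest ileal one. The unused colon day 8 library, at 154, lay within the ileal range of its day. The group means on day 12 were 2063 ± 542 in colon and 166 ± 41.5 in ileum (SD, n = 4 each), a difference of 3.51 ± 0.69 on the log2 scale (SE, 11.4-fold, edgeR adjusted p = 0.000953). On day 8 the difference was 2.16 ± 0.68 (0.0179), which did not pass without colon day 8 replicate 3 (1.63, 0.107) or ileum day 8 replicate 1 (1.87, 0.0558) or 2 (1.83, 0.0515), or with all 4 colon day 8 libraries (1.81, 0.0674). It was 3.43 without ileum day 8 replicate 4. On day 4 it was 1.85 ± 0.68 and did not pass (0.113), and the ileal library at 786 is replicate 2 with its colonic markers. Without replicates 2 and 3 the difference was 3.24 (0.00466). Reg4 was at least 154-fold higher in colon day 4 than in the graft and at least 38.5-fold higher in ileum day 4 (7.78e-07 and 1.08e-05), again against 3 reads in each graft library. The ileal bound is of a mean raised by replicate 2 at 786, whereas the other ileal day 4 libraries stood at 92.2 to 114. Without replicates 2 and 3 the ileal rise over the graft still passed (edgeR adjusted p = 9.71e-05). The 8 goblet cell genes found held 0.594% to 1.41% of reads on genes in colon and 0.184% to 1.02% in ileum, and the 6 enteroendocrine genes averaged 0.0359% ± 0.0160 in colon day 12 and 0.0040% ± 0.0026 in ileum day 12 (SD, n = 4 each). Their part in the Reg4 difference was not tested.

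**Figure D2:**
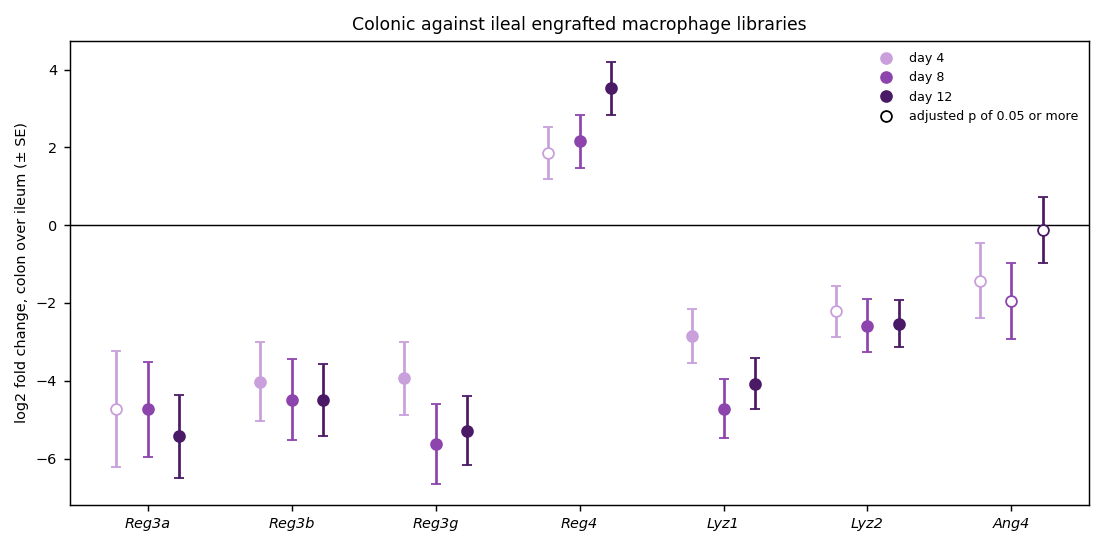
Log2 fold change of colon over ileum for each gene on days 4, 8 and 12 (points, with SE bars; open points have an adjusted p of 0.05 or more in edgeR). Reg4 lies above 0 and the 3 REG3 lectins and both lysozymes below 0 on all days, whereas Ang4 on day 12 lies at -0.12.

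Lyz2, the lysozyme of myeloid cells, was the most abundant member in the graft, with 64735, 73996 and 52893 normalized reads. Colonic libraries had 642, 975 and 1043 on day 4, 2452, 1347 and 688 on day 8, and 1199, 3958, 1274 and 1202 on day 12. Ileal libraries had 3038, 1509, 4359 and 6740.0 on day 4, 8312, 9048, 6482 and 5299 on day 8, and 24816, 8689.6, 2288 and 3695 on day 12. All engrafted libraries lay below the graft. Lyz2 fell by 5.82 ± 0.81 on the log2 scale from the graft to colon day 4 (SE, n = 3 and 3, edgeR adjusted p = 1.71e-06, 56.4-fold) and fell by 3.60 ± 0.65 to ileum day 4 (n = 3 and 4, 5.66e-05). The share of reads on pan-leukocyte genes, given above, was also lower in the colonic and ileal libraries than in the graft. The part of this lower share in the fall of Lyz2, and in that of Lyz1 below, was not tested. Colon minus ileum was -2.59 ± 0.68 on day 8 (0.0055) and -2.53 ± 0.60 on day 12 (0.00306), where colon replicate 2 overlapped the ileum. The day 12 difference rested in part on ileum replicate 1, the library at 24816, without which it was -1.43 (0.0376), and it was -3.14 without colon replicate 2. With experiment 2 alone neither day passed (-1.88, 0.403 on day 8 and -2.57, 0.0935 on day 12). On day 4 the difference of -2.22 ± 0.67 missed the threshold (0.0605), although no libraries overlapped, and passed without the 2 ileal libraries of experiment 1 (0.0137) and with the experiment as a block (-2.33, 0.035). The unused colon day 8 library had 13225 normalized reads of Lyz2 and 2.65% of reads on macrophage genes, and with it the day 8 difference was -0.69 and did not pass (0.54).

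Lyz1, known as the lysozyme of Paneth cells, had 26282, 33129 and 20628 normalized reads in the graft, where the epithelial genes held at most 0.0009% of reads on genes. Reads counted as Lyz1 were thus more frequent in every graft library than in any colonic one, within the uncertainty of the near copy. Colonic levels were 462, 845 and 744 on day 4, 1057, 553 and 440.1 on day 8 and 582, 2152, 825 and 785 on day 12. Ileal levels were 5124, 775, 3520.5 and 9643 on day 4, 10060.3, 13349, 9417 and 21579 on day 8, and 29464, 20608, 5210.3 and 11464 on day 12. Only the ileal library at 775, again replicate 2 of day 4, lay within the colonic range of its day. Lyz1 fell by 4.92 ± 0.79 from the graft to colon day 4 (1.08e-05, 30.3-fold) and fell by 2.07 ± 0.63 to ileum day 4 (0.007, 4.21-fold). The latter was lost without ileum day 4 replicates 2 and 3 (-1.48, 0.067). Colon minus ileum was -2.85 ± 0.70 on day 4 (0.0389), -4.71 ± 0.77 on day 8 (0.000225) and -4.08 ± 0.65 on day 12 (0.000317, 16.9-fold), on the log2 scale with SE and edgeR adjusted p. From ileum day 4 to day 12 the fitted difference was 1.89 ± 0.60 and did not pass (0.0924), but it passed with DESeq2 (0.0246) and without ileum day 4 replicate 4 (0.0316). Without ileum day 4 replicates 2 and 3 it was 1.30 and did not pass (0.993), nor did it with the experiment as a block.

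The share of Lyz1 in the reads of both lysozymes is likewise given with no test between groups. Lyz1 made up 28.9%, 30.9% and 28.1% of lysozyme reads in the graft, with 95% Wilson intervals (counting error only) of 28.4% to 29.4%, 30.5% to 31.3% and 27.6% to 28.6%. In colonic libraries the share was 41.6% to 46.4% on day 4, 29.1% to 39.0% on day 8 and 32.7% to 39.5% on day 12. In ileal libraries it was 62.8%, 33.9%, 44.7% and 58.9% on day 4, 54.8% to 80.3% on day 8 and 54.3% to 75.6% on day 12. All ileal libraries of days 8 and 12 exceeded all colonic ones. The low ileal values of day 4 were those of replicates 2 and 3. The 9 Paneth cell genes found, mostly alpha-defensins, held 1.31% to 8.28% of reads on genes in ileum days 8 and 12, 0.0005% to 0.0431% in colon and at most 0.0002% in the graft. In ileum day 4 they held 0.817% and 2.70% in replicates 1 and 4 but 0.0259% and 0.119% in replicates 2 and 3. The part of Paneth cell RNA in the ileal Lyz1 level was not tested.

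**Figure D3:**
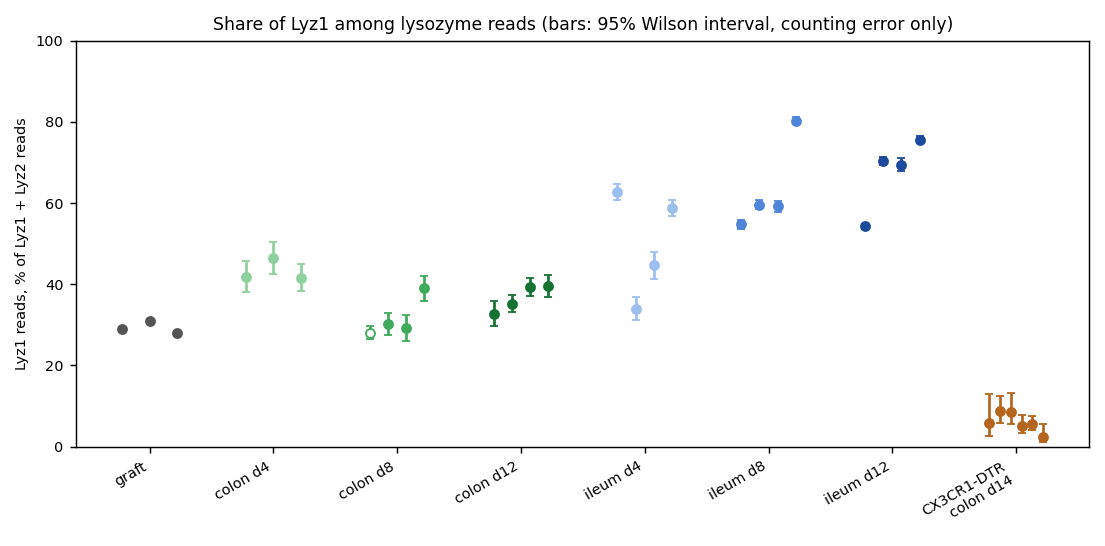
Lyz1 reads as a percentage of Lyz1 and Lyz2 reads in each library, by group, with 95% Wilson intervals (counting error only); the open point is the unused colon day 8 library. The graft lies between 28.1% and 30.9%, ileum days 8 and 12 between 54.3% and 80.3%, and the CX3CR1-DTR libraries between 2.45% and 8.66%.

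Ang4, the antimicrobial angiogenin, was present in both segments. The graft had a single read. Colonic levels were 602, 548 and 150.5 normalized reads on day 4, 304, 981 and 415 on day 8 and 605, 5312, 123 and 175 on day 12. Ileal levels were 489, 2039, 369 and 1640.4 on day 4, 515, 3401, 897 and 2162 on day 8 and 1263, 2917, 429 and 1456 on day 12. Colon and ileum overlapped on every day, and no comparison between them passed (edgeR adjusted p = 0.406, 0.128 and 0.932), although day 8 passed with the compared groups fitted alone (-1.97, 0.0284). On day 12 the difference was -0.12 ± 0.85, and without colon replicate 2, the library at 5312, it was -2.56 and passed (0.012). Against the single graft read, Ang4 was 623-fold more frequent in colon day 4 (95% counting interval 111 to 24630) and 2209-fold in ileum day 4 (396 to 87310), and both passed (0.000211 and 3.86e-05). Ang3 and Ang5, which have identical counts in every library, stood at 3.47% to 13.5% of the Ang4 reads, with a median of 7.96%, and reads of these copies cannot be fully separated from Ang4.

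In the CX3CR1-DTR recipients, whose colonic grafted cells were sorted on day 14, Reg4 dominated. Values here and for colon day 12 beside them are per 10000000 reads on genes, as the second table gives no total of mapped reads. Sequencing run, recipient strain and day differ together between the tables and cannot be told apart. In a fit of the graft, colon day 12 and these libraries over 11718 genes, which Reg3a did not enter, 6 of 6 members passed against the graft, 4 higher and 2 lower, where 75.5% of all genes did (39.5% higher and 36.0% lower). Against colon day 12, 5 of 6 passed, 1 higher and 4 lower, where 60.7% of all genes did (25.2% higher and 35.4% lower). Of the lower members, Reg3b and Reg3g would not have been tested without the colon day 12 libraries. The 4 members higher than in the graft were admitted through engrafted libraries alone, as the graft held at most a single read of each. Their tests against the graft are again a description and no independent support. Reg4 stood at 13965, 8842, 25799.7, 17053, 24018 and 14203 in the 6 libraries and at 3319.7, 2225, 3720.4 and 4595 in colon day 12. The groups did not overlap, and the difference was 2.30 ± 0.34 on the log2 scale (SE, 4.92-fold, edgeR adjusted p = 8.32e-05), in the same direction in all 6 libraries. The goblet cell genes held 1.33% to 1.83% of reads on genes in these libraries against 0.887% to 1.41% in colon day 12. Against the graft, Reg4 was at least 1672-fold higher (5.66e-09).

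The other colonic levels were lower or variable in the CX3CR1-DTR libraries. Reg3b had 0, 11, 1, 1, 0 and 23 reads, or 0 to 105 per 10000000, against 689 to 4086 in colon day 12, a difference of -6.17 ± 0.89 on the log2 scale (SE, edgeR adjusted p = 6.31e-05). It was -7.37 without replicate 6 and -5.48 without colon day 12 replicate 2. Its rise over the graft (at least 2.62-fold, 0.0407) was kept in 7 of 14 alternatives and was lost without any 1 of the graft libraries or of replicates 2 and 6 (0.0668 to 0.0927). Reg3g had 0, 32, 6, 12, 10 and 80 reads, or 0 to 364 per 10000000 against 533 to 1697, a difference of -3.13 ± 0.72 (0.00161), or -4.16 without replicate 6. Replicates 2 and 6 were highest for both lectins. Neither lectin would have been tested without the colon day 12 libraries, in which both were higher. Their tests against colon day 12 are thus a description and no independent support. Reg3a had no read in any of the 6 libraries, which allows up to 7.11 to 24.51 per 10000000 in each. Against the single graft read, Reg3g was 83.9-fold more frequent (95% counting interval 14.8 to 3338, adjusted p = 0.00272), and Ang4 885-fold (158.5 to 34970, 0.00269).

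Lyz1 stood at 40.9, 105, 123, 57.0, 90.1 and 22.8 per 10000000 reads on genes in the CX3CR1-DTR libraries, resting on 5 to 38 reads each, against 852 to 3653 in colon day 12. The difference was -4.68 ± 0.45 on the log2 scale (7.21e-07, 25.6-fold), and that from the graft -8.74 ± 0.52 (2.59e-09). Lyz2 stood at 654, 1111, 1308, 1071, 1546 and 906, against 1755, 6718, 2272 and 2136, a difference of -1.57 ± 0.35 (0.00124, 2.97-fold), or -0.94 without colon day 12 replicate 2 (0.00504). No library overlapped for either lysozyme. Lyz1 made up 5.88%, 8.66%, 8.57%, 5.05%, 5.51% and 2.45% of lysozyme reads, below every library of the first transfer. Ang4 ranged from 89.9 to 2882 (2882 in replicate 3 and 2051 in replicate 5), against 219 to 9018, and the difference of -1.45 ± 1.06 did not pass (0.254). Without colon day 12 replicate 2 it was 1.03. The 7 pan-leukocyte genes held 0.0266% to 0.0811% of reads on genes, against 0.0397% to 0.132% in colon day 12, with 5 of them lower and 2 higher in mean, and the 12 macrophage genes 0.171% to 0.389% against 0.200% to 0.674%, with 10 lower and 2 higher. Paneth cell genes held 0.0003% to 0.0029% of reads on genes, with Defa21, Defa22 and Defa26 at 0 in all 6 libraries. The part of leukocyte and Paneth cell RNA in these differences was not tested.

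Compared per kilobase of transcript, the order of the genes depended on the tissue. In ileum day 12 the mean level, in reads per 10000000 reads on genes and per kilobase, was 54506 ± 62524 for Reg3b, 43280.4 ± 39906 for Reg3g, 23061 ± 13206 for Lyz1, 16033 ± 15935 for Lyz2 and 3873 ± 2477 for Ang4, followed by 349 ± 298 for Reg3a and 291 ± 53.5 for Reg4 (SD, n = 4). Neighbours in this order differed by less than the larger SD of the pair except Ang4 and Reg3a. In colon day 12 Ang4 (3775 ± 6198), Reg4 (3421 ± 971), Lyz2 (3064 ± 2228), Reg3b (2533 ± 2029), Lyz1 (1463 ± 983) and Reg3g (1151 ± 716) each differed from the next by less than the spread, and Reg3a (7.32 ± 7.44) lay apart. In the CX3CR1-DTR libraries Reg4 stood alone at 17091 ± 6393 (n = 6), ahead of Ang4 (1375 ± 1747) and Lyz2 (1046 ± 295). Since reads come from the 3′ end, division by length is only a convention here. Together the 7 genes took 1.07% to 1.52% of reads on genes in the graft, 0.0666% to 0.274% in the colon, 0.260% to 2.43% in the ileum and 0.106% to 0.302% in the CX3CR1-DTR libraries.

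Within transfer experiments the segments differed in the direction of the pooled fit for Reg4, Reg3b, Reg3g, Lyz1 and Lyz2, and not always for Ang4. On day 12, colon over ileum for Reg4 was 3.84, 3.22 and 4.202 on the log2 scale of mean normalized reads in experiments 1, 2 and 3, which hold 1, 2 and 1 libraries of each segment. For Reg3g it was -6.86, -3.77 and -5.17, for Reg3b -5.76, -2.85 and -4.48 and for Lyz1 -5.15, -3.54 and -3.87. Ang4 was at -2.27, 1.68 and -3.06, and the positive value is that of experiment 2, which holds colon replicate 2. On day 8 the colon was likewise below the ileum for Reg3b, Reg3g, Lyz1 and Lyz2 and above it for Reg4 in experiments 2 and 3, the only ones with both segments. The label of ileum day 8 replicate 2 carries the day and month of experiment 3 but an earlier year, and it was taken as experiment 3. Without it, experiment 3 on day 8 gave -2.66 in place of -4.35 for Reg3b, -3.28 in place of -5.58 for Reg3g, -5.44 in place of -5.14 for Lyz1, -2.38 in place of -2.82 for Lyz2 and 1.497 in place of 2.32 for Reg4. On day 4 only experiment 2 holds both segments, with -4.17 for Reg3b, -4.59 for Reg3g, -3.61 for Lyz1 and 3.27 for Reg4.

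Other antimicrobial genes of the gut were described from a list of 48 symbols, of which 42 are in both tables and 33 were tested. Between colon and ileum on day 12, 7 were higher in colon, 16 were higher in ileum and 10 did not pass, with a median difference of -1.81 on the log2 scale against -0.01 for all genes tested. On day 8 there were 9, 17 and 7 (median -1.88, all genes -0.05), and on day 4 there were 0, 4 and 29 (median -1.14, all genes -0.04). Of all genes tested, 15.3% were higher in colon and 17.2% in ileum on day 12. These shares were 16.7% and 18.3% on day 8, and 0.524% and 2.66% on day 4. Without ileum day 4 replicates 2 and 3 the day 4 counts of the list were 7, 14 and 12 (median -1.89), and with the experiment as a block 4, 12 and 17. Among all genes, 3067 of 11815 passed in the former setting and 1265 of 11842 in the latter. Lypd8, which keeps flagellated bacteria off the colonic epithelium, had the highest mean of the list, with 28863 ± 6946 normalized reads in colon day 12 and 4994 ± 2223 in ileum day 12 (SD, n = 4 each), and was higher in colon by 2.42 ± 0.49 (SE, edgeR adjusted p = 0.00103). The Paneth cell alpha-defensins were on the other side, at -7.30 ± 1.48 for Defa2 (0.00107), -7.31 ± 1.48 for Defa20 (0.00106), -7.84 ± 1.42 for Defa21 (0.000577) and -7.72 ± 1.46 for Defa22 (0.000696). Defensin copies are close to one another, and single members are uncertain, although each is counted singly here. From the graft to colon day 4, 25 of 33 rose and 5 fell (median 4.18 with bounds, all genes 0.21). To ileum day 4, 27 rose and 5 fell (6.89 with bounds, all genes 0.23), or 25 and 5 without replicates 2 and 3. Bounds were set for genes with at most 3 reads in every library of a group. Those with at most 3 reads in every graft library entered the tests through engrafted libraries alone. Over all genes tested, 35.9% rose and 24.5% fell to colon day 4, and 36.2% rose and 20.5% fell to ileum day 4. Between day 12 and day 4, 0 of 33 passed in colon, and in ileum 3 were lower on day 12, Fut2 (-4.202, 0.0219), Saa1 (-3.92, 0.0287) and Lypd8 (-1.96, 0.0341), of which Fut2 and Saa1 are named after their values were seen. None of the 3 passed without ileum day 4 replicates 2 and 3 (adjusted p = 0.993 each) or with the block (0.105 to 0.157). In the main fit 2.02% of all genes tested were lower in ileum day 12 than in ileum day 4. In the CX3CR1-DTR libraries, 3 of 29 were higher and 13 lower than in colon day 12 (median -0.84 with bounds, all genes -0.11), and 16 were higher and 6 lower than in the graft (2.53 with bounds, all genes 0.13). The shares over all genes tested were 25.2% higher and 35.4% lower than in colon day 12. Against the graft they were 39.5% higher and 36.0% lower.

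Levels of single genes were also set beside the marker sums of the same library. Because colon and ileum form separate clusters, Pearson correlations of log2(normalized reads + 50) are given within each segment (10 colonic and 12 ileal libraries), as a description of points that share their library and depth. The ileal values depended on day 4 replicates 2 and 3. They are given with all 12 and then with the other 10 libraries, except for the epithelial genes. Lyz1 and the Paneth cell genes gave 0.92 and 0.76 in the ileum and 0.16 in the colon, where Lyz1 and the macrophage genes gave 0.85. Lyz2 and the macrophage genes gave 0.94 in the colon and 0.77 and 0.66 in the ileum. Reg3g and the Paneth cell genes gave 0.69 in the colon and 0.64 and 0.33 in the ileum, and Reg3b 0.45 in the colon and 0.27 and 0.42 in the ileum. Reg3g and the macrophage genes gave -0.29 in the colon and 0.47 and 0.36 in the ileum. Reg4 and the goblet cell genes gave -0.03 in the colon and 0.57 and 0.35 in the ileum. With the Paneth cell genes Reg4 gave -0.28 in the colon and -0.24 and 0.56 in the ileum. Ang4 and the Paneth cell genes gave -0.08 in the colon and 0.36 and 0.87 in the ileum. The epithelial genes were compared with all 12 ileal libraries only. In colon and ileum they gave -0.40 and -0.25 for Reg3a, -0.53 and -0.14 for Reg3b, and -0.46 and -0.51 for Reg3g. For Lyz1 they gave -0.65 and -0.77, for Lyz2 -0.53 and -0.62, for Ang4 -0.605 and -0.08 and for Reg4 -0.05 and 0.27. Values of the remaining pairs of gene and list are not given.

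**Figure D4:**
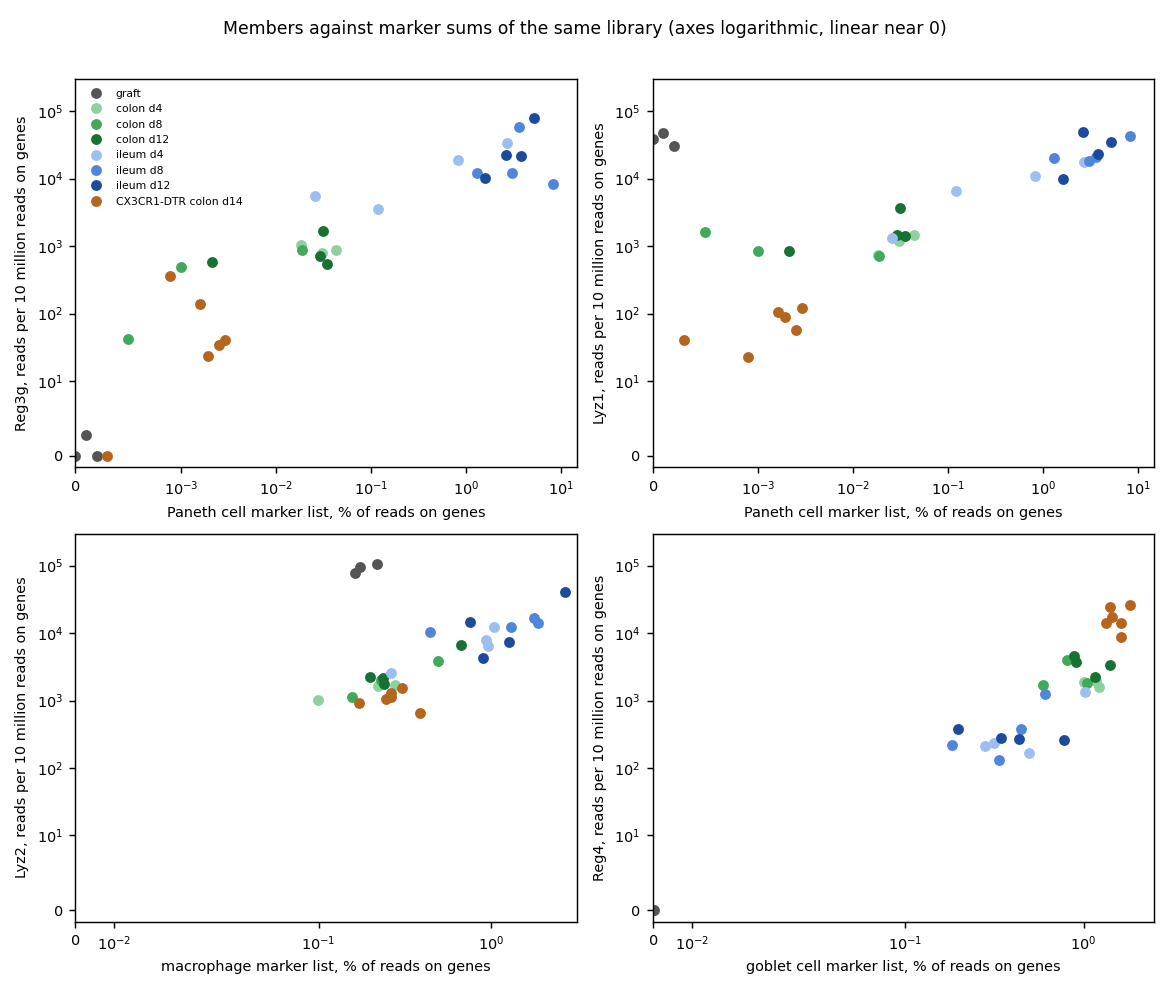
Reg3g and Lyz1 against the Paneth cell genes, Lyz2 against the macrophage genes and Reg4 against the goblet cell genes; each point is a library, the x axis is the summed share of reads on genes (%), the y axis reads per 10000000 reads on genes, and both axes are logarithmic with a linear part near 0. The graft lies apart with high Lyz1 and Lyz2 at Paneth cell shares of at most 0.0002%, and the CX3CR1-DTR libraries lie highest for Reg4.

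Over the 22 engrafted libraries of the first transfer, each member was compared with all other genes tested, by the Pearson correlation of log2(normalized reads + 50), again as a description in which the segment difference is shared by all points. Reg3b and Reg3g were each other's closest gene (r = 0.97), followed for both by Mptx2, a pentraxin of the small intestine (0.89 and 0.95), and Psme2b (0.88 and 0.93). Next were Psmb10 (0.86) and Defa36 (0.83) for Reg3b and Defa36 and Defa37 (0.93 each) for Reg3g. Lyz1 was closest to Abhd15 (0.97), Itln1, the intelectin of Paneth and goblet cells (0.96), and the defensins Defa3 (0.96) and Defa29 (0.95), with Serpina3g next (0.95). Lyz2 was closest to Bambi-ps1 (0.95), Klhl6, Hebp1, Smim3 and the lysosomal protease gene Ctsz (0.94 each). Reg4 was closest to Fxyd3 (0.95), Pyy, which encodes peptide YY of enteroendocrine cells (0.95), and Gstm5, Ndufa7 and 9230105E05Rik (0.94, 0.94 and 0.93). Reg3a was closest to Ms4a18 (0.94), Amn (0.93), Npc1l1, the enterocyte cholesterol transporter (0.91), Ggt1 (0.91) and Rragd (0.90). Ang4 had no close gene other than its copies Ang3 and Ang5 (0.95), as Reg3b (0.69), Pnliprp2 (0.67) and Galnt1 (0.66) followed at a distance. These ranks depended on the number added before the log. With 1 in place of 50, Mptx2 stayed second for Reg3b and Reg3g and Itln1 second for Lyz1, but Defa36 moved to rank 76 for Reg3b and 59 for Reg3g, Defa37 to 60, Defa3 to 98 and Defa29 to 128 for Lyz1, Pyy to 20 for Reg4, Amn to 67 and Ggt1 to 173 for Reg3a, and Pnliprp2 to 34 for Ang4. Without ileum day 4 replicates 2 and 3 (20 libraries, 50 added), Reg3b and Reg3g were again each other's closest gene (0.98), and the genes named for Reg3a, Reg4, Lyz1 and Lyz2 were within rank 11, whereas Psmb10 and Defa36 moved to ranks 23 and 22 for Reg3b.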

How the data were processed

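Libraries were made by the authors with a derivation of MARS-seq from poly(A) RNA, and reads were aligned to mm9 with HISAT 0.1.6, of which those with 1 position were kept. The authors counted sense reads on exons with HOMER, with 1 transcript per gene and no normalization, and these raw counts were deposited, which are whole numbers. A collapse of molecular identifiers is not given in the sources used here. Of the columns of the second deposit, 52 that match no sample label were not used. Normalized reads are counts divided by the mapped reads of the library and multiplied by 10000000. Where CX3CR1-DTR libraries are involved, the divisor is the sum over genes.

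A gene was tested if 3 or more libraries reached 50 normalized reads. Models were made in R 4.3.3 by edgeR 4.0.16 (TMM scaling, glmQLFit, glmQLFTest, Benjamini-Hochberg over all genes, adjusted p under 0.05), in 1 fit of 25 libraries and 7 groups and a second of the graft, colon day 12 and the CX3CR1-DTR libraries. Changes are log2 fold changes with SE. For CX3CR1-DTR recipients the study states 4 repeats, and all 6 libraries were used. DESeq2 1.42.0, library totals, other filters, an equal-variance test, other sets of libraries, the transfer experiment as a block and leaving out each library were alternatives, and the fit was tested on simulated data. Dates in the labels, which step by the days after transfer, tie the libraries to 3 experiments, with 1 label (ileum day 8 replicate 2) a year off. Deviations of libraries of an experiment had a median r of 0.020 over 96 pairs of different groups, with a range of -0.48 to 0.52. The 171 pairs from different experiments had a median of -0.009 and a range of -0.45 to 0.40. Such medians do not show that the experiment had no effect, and the block changed the number of genes called. The 51 pairs of libraries of a group held no duplicate (smallest chi-square per degree of freedom 5.21).

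The members and lists were chosen with earlier results of these data known. Named beside the members were the 3 genes of the antimicrobial list with the highest mean and the 3 with the largest difference between colon and ileum on day 12, and the 5 genes most like each member over 22 libraries. The cell type lists were epithelium, small intestinal and colonic enterocyte, goblet, Paneth and enteroendocrine cell, macrophage and pan-leukocyte. Tables were handled with python 3.11.15, numpy 2.4.6, pandas 2.3.3 and scipy 1.17.1, and figures drawn with matplotlib 3.10.9.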

Additional observations from a re-analysis of the deposited data

Results flagged for a closer look

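In 34 combinations of a member and a group of 4 or 6 libraries, 7 had a library far from the others by Dixon's criterion. Chance gives this in about 1 of 20 for normally distributed values. The criterion was applied to reads without a log, and the members share their libraries, so the number flagged is a description only. Of these 7, 4 were colon day 12 replicate 2, with 1000 normalized reads of Reg3g (others 300 to 401), 2150 of Lyz1 (582 to 825), 3960 of Lyz2 (1200 to 1270) and 5310 of Ang4 (123 to 605). This library also held 0.674% of reads on macrophage genes, the highest share of its group. Ileum day 8 replicate 2 stood apart with 29000 normalized reads of Reg3b (others 4670 to 7630) and 37300 of Reg3g (4210 to 6400). Ileum day 4 replicate 2, which carries colonic enterocyte markers, stood apart with 786 of Reg4 (92.2 to 114).

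The colon day 8 library that entered no comparison (replicate 1) had 73.8 normalized reads of Reg3b, 87.2 of Reg3g, 154 of Reg4 and 121 of Ang4, all above the graft, where these genes lay between 0 and 1.94.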

How the results depend on the processing

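Among the members' differences under alternatives other than leaving out a library, 541 kept direction and side of the threshold, 28 lost the call, 10 gained it and 11 changed sign, and the cause was not tested. Between colon and ileum on day 12, 3846 genes and 6 members passed, against 2508 and 3 with the equal-variance test and 1859 genes with experiment 2 alone. On day 8, 4144 genes and 6 members passed, against 2508 and 3 with the equal-variance test and 578 genes with experiment 2 alone. Day 4 was least stable. There 377 genes and 3 members passed, against 7 and 0 with all 4 colon day 8 libraries, 0 and 0 with the compared groups alone or the equal-variance test, 1080 and 5 with DESeq2, 1883 and 5 with experiment 2 alone, 3067 and 6 with ileum day 4 of experiment 2 alone, and 164 genes with library totals. For ileum day 12 against day 4, 272 genes passed, against 138 with all 4 colon day 8 libraries, 654 (and 1 member, Lyz1) with DESeq2, and 0 with the compared groups alone, the equal-variance test, experiment 2 alone or ileum day 4 of experiment 2 alone. DESeq2 called 1 gene between colon day 12 and day 4 and 16 in the interaction. The equal-variance test called 4 members between ileum day 4 and the graft.

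With the transfer experiment as a replicate block, 1265 genes and 4 members passed between colon and ileum on day 4, the fourth being Lyz2 (-2.33, adjusted p = 0.035), and 0 genes between ileum day 12 and day 4. With the block Ang4 was at 0.14 between colon and ileum on day 12 and Reg3g at 0.061 between colon day 12 and day 4. The block changed no other call of a member. No block could be fitted for the CX3CR1-DTR libraries, whose labels carry no dates. Settings for the antimicrobial list, the marker relations and the closest genes without ileum day 4 of experiment 1, and the list with the block, were chosen after seeing the data.

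Signs changed in differences that had not passed. Ang4 on day 12 was at 0.03 with library totals and 1.48 with experiment 2 alone. With experiment 2 alone Reg3g was at 0.40 between colon day 12 and day 4, and between ileum day 12 and day 4 Reg3b was at -0.44, Reg3g at -0.38, Reg4 at 0.78 and Ang4 at -0.15. With ileum day 4 of experiment 2 alone Reg4 was at 0.64 in the latter and Reg3a at 0.21 in the interaction.

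Leaving out 1 library gave 0 to 2089 genes and 0 to 6 members between colon and ileum on day 4 (2089 and 6 without ileum day 4 replicate 2, and 0 members without any 1 of the colon libraries or ileum replicates 1 and 4), 2647 to 4061 genes and 5 to 6 members on day 8, 2889 to 3669 genes and 6 to 7 members on day 12, 0 to 1142 genes and 0 to 1 members between ileum day 12 and day 4 (1142 genes without ileum day 4 replicate 1, 668 without replicate 4), 0 to 61 genes in the interaction, and 5 to 6 members between CX3CR1-DTR libraries and the graft. Differences that changed sign ranged as follows. Ang4 went from -2.56 to 0.30 between colon and ileum on day 12, from -0.64 to 2.19 between colon day 12 and day 4, from -2.19 to 1.03 between CX3CR1-DTR and colon day 12 and from -1.12 to 1.74 in the interaction. In the interaction Lyz2 went from -0.93 to 0.78, Reg3a from -1.78 to 0.034 and Reg3b from -1.14 to 0.64. Between colon day 12 and day 4 Reg3b went from -0.21 to 0.86 and Reg3g from -0.56 to 0.10. Between ileum day 12 and day 4 Reg3b went from -0.18 to 1.37 and Reg4 from -1.01 to 0.66. Library totals in place of TMM moved the median of all genes from 0.21 to -0.12 between colon day 4 and the graft, from 0.23 to -0.20 for ileum day 4, from -0.05 to 0.24 between the segments on day 8, from -0.01 to 0.11 on day 12 and from 0.13 to -0.15 between CX3CR1-DTR libraries and the graft. Depth limits Reg3a in the colon and Reg3a and Reg3b in the CX3CR1-DTR libraries, where most libraries lie at or under 3 reads.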
